A study of Mus musculus with 6 samples.

Results

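The Sox (SRY-box) genes encode transcription factors that bind DNA through an HMG box. The 10 members described here, Sox1, Sox2, Sox3, Sox4, Sox8, Sox9, Sox10, Sox11, Sox12 and Sox21, were found by matching their symbols to the gene IDs of the deposited table. All 10 were found among 52550 gene IDs. Another 10 Sox genes of the mouse are in the table and serve for comparison. RNA immunoprecipitation sequencing (RIP-seq) was used in the study to find mRNAs held by YTHDF1 and YTHDF2 in cerebellar granule cells (GCs). Per the labels, the mice were wildtype C57BL/6 and 8 days old, and the study itself names a short range of ages up to that day. There were 3 groups of 2 libraries each: input, which is RNA of the lysate without selection, YTHDF1 RIP and YTHDF2 RIP, which differ only in the antibody. No library of a control antibody was analysed here. No label places the replicates in separate animals, so p-values measure the spread between libraries, which may be technical.

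In the developing brain, SoxB1 factors (Sox1, Sox2 and Sox3) maintain neural progenitors, and Sox21, a SoxB2 factor, counteracts them. SoxC factors (Sox4, Sox11 and Sox12) act in young neurons, where they turn on neuronal genes. SoxE factors (Sox8, Sox9 and Sox10) act in glia, Sox9 mainly in astrocytes and Bergmann glia and Sox10 in oligodendrocytes. YTHDF1 and YTHDF2 are cytoplasmic readers of N6-methyladenosine (m6A), a mark that is placed on adenosines within a short consensus and is often found near stop codons. YTHDF2 is best known for directing its mRNAs to decay and YTHDF1 for aiding their translation.

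The HMG box coding sequence shows how close the members are to each other, which bears on how reads could be divided among them. The stretch printed is the first 60 bases of the conserved box, 5′ to 3′ on the coding strand, read from the GENCODE transcripts on GRCm38. Capitals mark each base that differs from Sox2.
Sox2, chr3:34650548-34650607, plus strand: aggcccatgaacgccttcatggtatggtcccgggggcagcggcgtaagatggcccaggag
Sox1, chr8:12396517-12396576, plus strand: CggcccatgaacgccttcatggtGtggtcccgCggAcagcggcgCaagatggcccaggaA
Sox3, chrX:60892936-60892995, minus strand: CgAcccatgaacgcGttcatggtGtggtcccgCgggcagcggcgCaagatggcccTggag
Sox21, chr14:118235549-118235608, minus strand: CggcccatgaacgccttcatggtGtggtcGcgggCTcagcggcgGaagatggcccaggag
Sox4, chr13:28952782-28952841, minus strand: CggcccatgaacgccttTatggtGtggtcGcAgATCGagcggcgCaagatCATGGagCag
Sox11, chr12:27342199-27342258, minus strand: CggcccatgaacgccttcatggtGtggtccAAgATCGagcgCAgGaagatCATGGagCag
Sox12, chr2:152397516-152397575, minus strand: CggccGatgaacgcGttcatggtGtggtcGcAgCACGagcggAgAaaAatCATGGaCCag
Sox8, chr17:25570163-25570222, minus strand: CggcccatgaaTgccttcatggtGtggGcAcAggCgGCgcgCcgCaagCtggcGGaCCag
Sox9, chr11:112782903-112782962, plus strand: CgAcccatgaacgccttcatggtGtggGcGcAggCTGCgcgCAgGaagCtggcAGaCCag
Sox10, chr15:79163342-79163401, minus strand: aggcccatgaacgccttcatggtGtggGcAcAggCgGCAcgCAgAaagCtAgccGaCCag
Over 210 bases of the box, Sox1 had 90.5% of its bases in common with Sox2, Sox21 had 88.1% and Sox3 had 87.6%. The SoxC and SoxE members shared 67.1% to 71.9% with Sox2. The closest pair was Sox4 and Sox11, at 91.0%. These 2 transcripts also had the longest identical run of any member pair, 48 bases, and Sox1 and Sox3 came next with 45 bases.

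Of the 10 members, 7 have a single exon, while Sox8 and Sox9 have 3 exons and Sox10 has 5. Among the 9815 tested protein-coding genes, 3.49% have 1 exon. The members' GC content ran from 46.5% in Sox11 to 66.4% in Sox3. Between them came Sox9 at 49.3%, Sox2 at 50.5%, Sox4 at 51.1%, Sox8 at 54.2%, Sox1 at 56.9%, Sox21 at 58.3%, Sox12 at 59.9% and Sox10 at 61.8%. The median over the tested protein-coding genes was 50.2%, and 80% of these genes lay between 42.1% and 58.3%. Sox3, Sox10 and Sox12 were thus GC-rich for this table, and Sox11 was on the AT-rich side.

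The letters GGACT, the most common form of the m6A consensus, were searched on the transcript strand only. All 10 members held at least 1 copy, as did 92.9% of the tested protein-coding genes. Sox12 had 12 copies, or 2.69 per kb, a density above the 2.00 per kb that 90% of the tested protein-coding genes did not exceed. Sox11 had 11 copies (1.32 per kb) in its long transcript of 8311 nt and Sox4 had 9 (1.88 per kb), against a median of 1.04 per kb. The remaining members had 1 to 3 copies. A match is a description of the sequence and does not show that the adenosine is methylated. Shown for the 3 SoxC members is the copy nearest to the stop codon, with GGACT in capitals, since the stop codon region is where m6A is often found.
Sox4, chr13:28951767-28951795, minus strand: cttcgaattcccGGACTattgcacgcccg
Sox11, chr12:27341250-27341278, minus strand: gatgatcgcgggGGACTggctggaggcga
Sox12, chr2:152396783-152396811, minus strand: gatgatcgcaggGGACTggcgctcgtcta
Each of the 3 copies lies in the coding sequence. In Sox11 and Sox12 the copy begins 43 nt before the stop codon, and in Sox4 it begins 82 nt before it.

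Levels are given as FPKM, which divides the fragments of a gene by its transcript length and by the mapped fragments of its library, so that genes can be compared. Values of the input libraries gave a clear order at the top. Sox11 was the highest, at 55.7 ± 5.16 FPKM (SD, n = 2), and Sox4 followed at 18.7 ± 1.54, Sox12 at 8.58 ± 1.14 and Sox9 at 6.26 ± 2.01. The ranges of these 4 genes did not overlap each other in the input. Sox2 (4.46 ± 0.260 FPKM), Sox8 (3.48 ± 1.30), Sox1 (2.54 ± 0.864) and Sox10 (2.27 ± 0.615) came next, and the ranges of neighbours in this order overlapped. Sox21 averaged 0.408 FPKM and Sox3 0.0451 FPKM. The SoxC members that act in young neurons therefore stood at the top, and Sox11 alone held 57.8% and 50.9% of the summed FPKM of the 10 members in the input libraries. In both RIP groups Sox11, Sox4 and Sox12 were still the 3 highest, but their ranges overlapped, so the order among them was not resolved there.

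**Figure D1:**
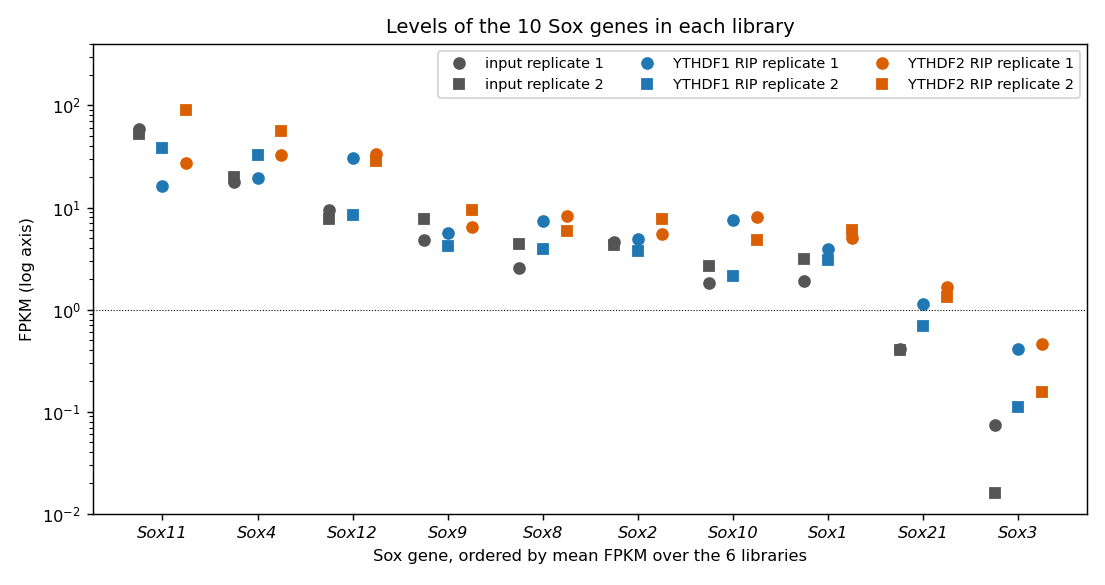
FPKM (log axis) of the 10 Sox genes in the 6 libraries, with colours for the 3 groups, circles for replicate 1 and squares for replicate 2. The dotted line is the mean level of 1 FPKM needed for the test, which Sox21 and Sox3 did not reach. Sox11, Sox4 and Sox12 were the highest, and the 2 YTHDF1 RIP replicates of Sox12, Sox10 and Sox11 lay far apart.

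A gene was tested with limma on log2(FPKM + 1) if its mean over the 6 libraries was at least 1 FPKM. This left 8 of the 10 members among 11057 tested genes. Sox21 was just under the limit with a mean of 0.940 FPKM, Sox3 was far under it with 0.204 FPKM, and Sox1 was the lowest tested member with 3.85 FPKM. The threshold was a Benjamini-Hochberg adjusted p of 0.05 over all tested genes. No tested member passed it in any comparison. In YTHDF1 RIP against input, 0 of 8 members passed, where 2.57% of all tested genes did, and 0 of 8 had an unadjusted p under 0.05, as 26.7% of all tested genes did. In YTHDF2 RIP against input, 0 of 8 passed, where 18.5% of all tested genes did, and 3 of 8, namely Sox1, Sox4 and Sox12, had an unadjusted p under 0.05, as 37.5% of all tested genes did. In YTHDF2 RIP against YTHDF1 RIP, 0 of 8 passed, where 0.00904% of all tested genes did, and 0 of 8 had an unadjusted p under 0.05, as 4.31% of all tested genes did. All p-values below are from this limma fit, and a p that misses the threshold does not show that the levels were equal. Every log2 change below refers to log2(FPKM + 1), and for low genes the added 1 makes it smaller than the change in FPKM.

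Sox12 (ENSMUSG00000051817, chr2:152393611-152398063, minus strand) had the largest change of the tested members in YTHDF2 RIP against input. Its level was 9.39 and 7.78 FPKM in input replicates 1 and 2, 30.6 and 8.51 FPKM in the YTHDF1 RIP, and 33.3 and 28.5 FPKM in the YTHDF2 RIP. Both YTHDF2 libraries were thus above both inputs, while only replicate 1 of the YTHDF1 RIP was. The log2 change in YTHDF2 RIP was 1.74 (SE 0.59, unadjusted p = 0.0201, adjusted p = 0.0766). The same value passed the threshold when the libraries of the YTHDF1 RIP were not all in the fit, with adjusted p = 0.0307 without YTHDF1 RIP replicate 1, 0.0313 without replicate 2 and 0.0315 without both. With a correction for GC content the change was 1.03 (adjusted p = 0.162). In YTHDF1 RIP against input the change of Sox12 was 0.86 (SE 0.59, adjusted p = 0.379), and it was -0.0054 without YTHDF1 RIP replicate 1. The value in YTHDF1 RIP therefore rested on that library.

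Sox4 (ENSMUSG00000076431, chr13:28948919-28953713, minus strand), which acts with Sox11 in newly formed neurons, had 17.6 and 19.8 FPKM in the input, 19.5 and 32.4 FPKM in the YTHDF1 RIP, and 32.9 and 55.6 FPKM in the YTHDF2 RIP. Both YTHDF2 libraries lay above the 4 others, and the YTHDF1 libraries overlapped the input. Its log2 change was 1.16 in YTHDF2 RIP (SE 0.48, unadjusted p = 0.0458, adjusted p = 0.126) and 0.41 in YTHDF1 RIP (SE 0.48, adjusted p = 0.610). With the GC correction the change in YTHDF2 RIP was 1.03.

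Sox11 (ENSMUSG00000063632, chr12:27334264-27342574, minus strand), the most abundant member in the input, had 59.4 and 52.1 FPKM in the input, 16.3 and 38.7 FPKM in the YTHDF1 RIP, and 27.3 and 90.3 FPKM in the YTHDF2 RIP. Both YTHDF1 libraries were below both inputs, and the YTHDF2 libraries lay one below and one above them. Its log2 change was -1.11 in YTHDF1 RIP (SE 0.69, adjusted p = 0.332) and -0.16 in YTHDF2 RIP (SE 0.69, adjusted p = 0.888). The first value was -0.51 without YTHDF1 RIP replicate 1 and -1.71 without replicate 2. Without YTHDF2 RIP replicate 1 the second value was 0.69, and without replicate 2 it was -1.0, so no direction can be given for the second value.

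Ratios within a library do not depend on how the library was scaled, but they can still vary with GC content. The ratio of Sox11 to Sox12 was 6.32 and 6.69 in the 2 input libraries. For YTHDF1 RIP it was 0.531 and 4.55, and for YTHDF2 RIP it was 0.819 and 3.17. All 4 RIP libraries were below both inputs. The ratio of Sox11 to Sox4 was 3.37 and 2.63 in the input, 0.833 and 1.20 for YTHDF1 RIP and 0.829 and 1.62 for YTHDF2 RIP, again lower in all 4 RIP libraries. With 2 libraries against 2, these ratios were not tested. On the log2 scale of the fit, the change of Sox11 minus that of Sox12 was -1.97 in YTHDF1 RIP and -1.89 in YTHDF2 RIP, and with the GC correction it was -1.03 and -0.996. The ratio of Sox4 to Sox12 was 1.88 and 2.55 in the input. For YTHDF1 RIP it was 0.638 and 3.80, and for YTHDF2 RIP 0.987 and 1.95, so the groups overlapped for this ratio. Ratios outside SoxC were apart too. Sox8 to Sox9 was 0.530 and 0.573 in the input and 0.618 to 1.30 in the RIP libraries. Sox2 to Sox1 was 2.41 and 1.36 in the input and 1.08 to 1.28 in the RIP libraries. No share over other pairs of genes is given, so ratios that lie apart are not a trait of Sox11.

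**Figure D2:**
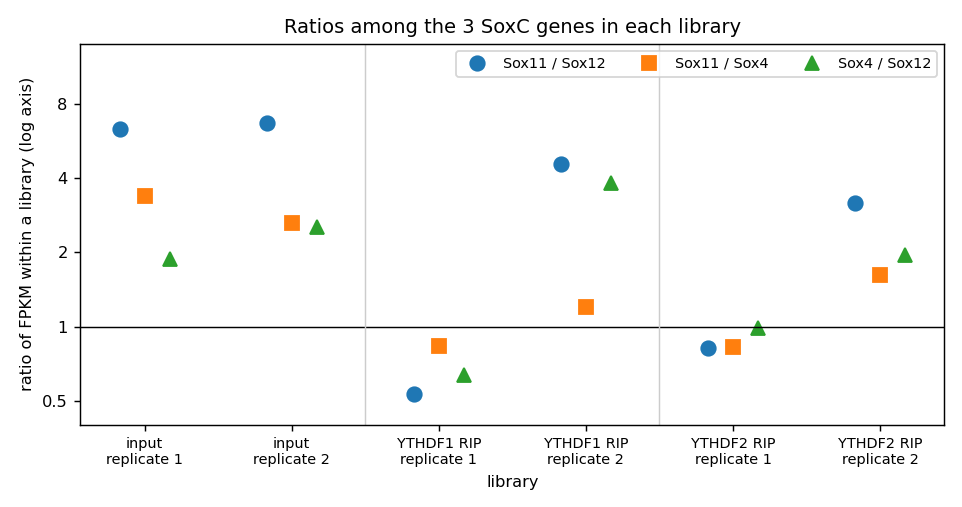
Ratio of FPKM (log axis) between pairs of the 3 SoxC genes within each of the 6 libraries, 1 point per pair and library. Sox11 to Sox12 was above 6 in both inputs and between 0.531 and 4.55 in the RIP libraries, and replicate 1 was below replicate 2 in both RIP groups.

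Among the SoxE members, Sox10 (ENSMUSG00000033006, chr15:79154908-79165240, minus strand) varied most between libraries. It had 1.83 and 2.70 FPKM in the input, 7.48 and 2.15 FPKM in the YTHDF1 RIP, and 8.06 and 4.77 FPKM in the YTHDF2 RIP. Both YTHDF2 libraries were above both inputs, and the YTHDF1 libraries lay one above and one within the input range. The log2 change was 1.16 in YTHDF2 RIP (SE 0.52, adjusted p = 0.147) and 0.67 in YTHDF1 RIP (SE 0.52, adjusted p = 0.431), and the latter was -0.04 without YTHDF1 RIP replicate 1.

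Sox8 (ENSMUSG00000024176, chr17:25565892-25570686, minus strand), a partner of Sox10 in the oligodendrocyte lineage, had 2.56 and 4.40 FPKM in the input, 7.33 and 3.96 FPKM in the YTHDF1 RIP, and 8.31 and 5.85 FPKM in the YTHDF2 RIP. The YTHDF2 libraries were again both above the inputs and the YTHDF1 libraries overlapped them. Its log2 changes were 0.86 (adjusted p = 0.174) in YTHDF2 RIP and 0.55 (adjusted p = 0.425) in YTHDF1 RIP, each with an SE of 0.42. The noncoding RNA 2810468N07Rik, which overlaps Sox8 on the opposite strand, had 1.34 and 1.69 FPKM in the input, 3.49 and 1.72 FPKM in the YTHDF1 RIP, and 4.80 and 1.93 FPKM in the YTHDF2 RIP. It was highest in the same 2 libraries as Sox8. The sources do not say whether the counting used strand, so reads of this pair cannot be told apart with certainty.

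Sox9 (ENSMUSG00000000567, chr11:112782224-112787760, plus strand), the member typical of astrocytes and Bergmann glia, had 4.83 and 7.68 FPKM in the input, 5.66 and 4.17 FPKM in the YTHDF1 RIP, and 6.41 and 9.46 FPKM in the YTHDF2 RIP. Both RIP groups overlapped the input. Its log2 changes were -0.28 in YTHDF1 RIP (adjusted p = 0.677) and 0.31 in YTHDF2 RIP (adjusted p = 0.601), each with an SE of 0.39. The ratio of Sox10 to Sox9 was 0.379 and 0.352 in the input, and 1.32, 0.516, 1.26 and 0.504 in YTHDF1 RIP replicates 1 and 2 and YTHDF2 RIP replicates 1 and 2. All 4 RIP libraries were above both inputs, replicate 1 more so in each RIP, and the ratio of Sox8 to Sox9 had the same order. In the fit, the log2 changes of Sox10 and Sox9 were 0.67 and -0.28 in YTHDF1 RIP and 1.16 and 0.31 in YTHDF2 RIP. With the GC correction they lay closer together, at -0.12 and -0.26 in YTHDF1 RIP and 0.34 and 0.30 in YTHDF2 RIP.

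The SoxB1 members were among the lower of the tested members. Sox2 (ENSMUSG00000074637, chr3:34650405-34652461, plus strand) had 4.64 and 4.28 FPKM in the input, 4.90 and 3.76 FPKM in the YTHDF1 RIP, and 5.44 and 7.65 FPKM in the YTHDF2 RIP. Sox1 (ENSMUSG00000096014, chr8:12395295-12400126, plus strand) had 1.92 and 3.15 FPKM in the input, 3.93 and 3.05 FPKM in the YTHDF1 RIP, and 5.06 and 5.97 FPKM in the YTHDF2 RIP. For both genes the 2 YTHDF2 libraries were above the 4 others, and the YTHDF1 libraries overlapped the input. The log2 change of Sox1 in YTHDF2 RIP was 0.90 (SE 0.34, unadjusted p = 0.0326, adjusted p = 0.102), and that of Sox2 was 0.45 (SE 0.35, adjusted p = 0.373). In YTHDF1 RIP they were 0.36 (adjusted p = 0.531) and -0.04 (adjusted p = 0.952).

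Sox1 and Sox2 lie within the genomic span of longer noncoding genes of the same strand, Sox1ot and Sox2ot. Whether they share exon bases was not examined, so it is not known whether their reads depend on how the counting divided them. Sox1ot had 0.294 and 0.328 FPKM in the input, 0.665 and 0.969 FPKM in the YTHDF1 RIP, and 0.839 and 2.24 FPKM in the YTHDF2 RIP. Sox2ot had 0.352 and 0.601 FPKM in the input, 0.0226 and 0.123 FPKM in the YTHDF1 RIP, and 0.0357 and 0.262 FPKM in the YTHDF2 RIP. All 4 RIP libraries were thus above the inputs for Sox1ot and below them for Sox2ot. The other overlapping genes, Gm25239 at Sox1, Gm26735 at Sox4 and Gm4675 at Sox21, had at most 0.115 FPKM in any library.

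Sox21 and Sox3 were too low to be tested. Sox21 (ENSMUSG00000061517, chr14:118233232-118237030, minus strand) had 0.411 and 0.405 FPKM in the input, 1.12 and 0.699 FPKM in the YTHDF1 RIP, and 1.66 and 1.34 FPKM in the YTHDF2 RIP. Sox3 (ENSMUSG00000045179, chrX:60891366-60893430, minus strand) had 0.0741 and 0.0160 FPKM in the input, 0.408 and 0.112 FPKM in the YTHDF1 RIP, and 0.459 and 0.156 FPKM in the YTHDF2 RIP. All 4 RIP libraries of both genes were above both inputs. For Sox3 the input values correspond to only about 3.91 and 0.997 of the smallest step estimated for those libraries. The step is a rough estimate, and by it the ratios of Sox3 rest on very few fragments.

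The study names a RIP to input FPKM ratio above 2 as its measure. Taken here between the group means, 2 of the 8 tested members were above it in YTHDF1 RIP, Sox12 (2.28) and Sox10 (2.12). Of all tested genes 23.3% were, or 2579 genes, and 3812 genes were in YTHDF2 RIP. The study lists far fewer mRNAs for each antibody, so a ratio above 2 here does not place a gene on its lists. In the other direction Sox11 had a ratio of 0.494, and 19.1% of all tested genes were more than 2 times lower. In YTHDF2 RIP 5 of the 8 were above 2, namely Sox12 (3.60), Sox10 (2.83), Sox4 (2.37), Sox1 (2.18) and Sox8 (2.03), where 34.5% of all tested genes were. The untested Sox21 had ratios of 2.23 and 3.68 and Sox3 of 5.78 and 6.82 in YTHDF1 and YTHDF2 RIP. With libraries scaled to the nuclear protein-coding genes or by medians of ratios, the members above 2 in YTHDF2 RIP were Sox3, Sox10, Sox12 and Sox21 only. Without YTHDF1 RIP replicate 1 only Sox3 was above 2 in YTHDF1 RIP.

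Both YTHDF2 libraries were above both inputs for 6 of the 8 tested members, all but Sox9 and Sox11, where 41.5% of all tested genes had that order. For YTHDF1 this held for 0 of 8, where 33.8% of all tested genes did, and Sox11 was the only member with both libraries below both inputs, as were 30.2% of all tested genes. The median log2 change of the tested members was 0.39 in YTHDF1 RIP and 0.88 in YTHDF2 RIP. Over all tested genes it was 0.05 and 0.26. Over 338 tested protein-coding genes with 1 exon outside the Sox family it was 0.38 and 0.71, nearer to the members' medians. The tested members are not all of this class, since Sox8, Sox9 and Sox10 have more exons, and a link to exon number was not tested. The change was positive for 5 of 8 members in YTHDF1 RIP and for 7 of 8 in YTHDF2 RIP. Of all tested genes, 52.3% and 59.5% had a positive change. Under scaling to the summed FPKM the change was positive for 7 and 8 of 8 members. That scaling also raised the median of all tested genes, to 0.49 and 0.79. With median-of-ratios scaling the change was positive for 5 and 7 of 8 members, and with scaling to the nuclear protein-coding genes for 6 and 7. Under these 2 scalings the medians in YTHDF2 RIP were 0.62 and 0.71 over the members, against 0.008 and 0.10 over all tested genes. With the GC correction the change was positive for 3 and 8 of 8 members. The medians were then -0.12 and 0.39 over the members, against 0.005 and 0.19 over all tested genes. Both comparisons use the same 2 input libraries.

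**Figure D3:**
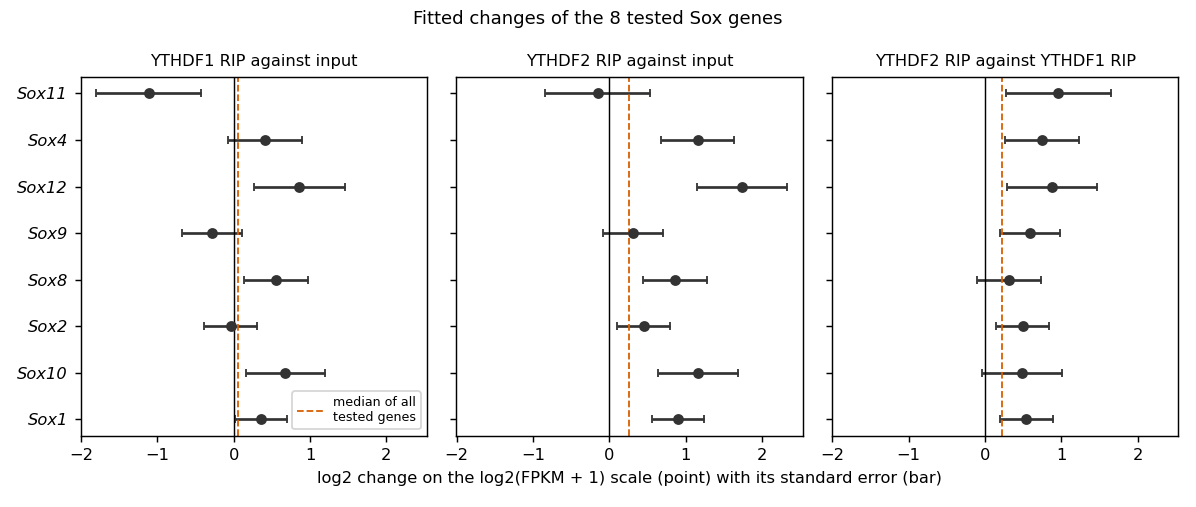
Fitted log2 changes (points) with standard errors (bars) of the 8 tested Sox genes in the 3 comparisons, on the log2(FPKM + 1) scale. The dashed line is the median of all 11057 tested genes. Sox12 had the largest change in YTHDF2 RIP against input (1.74), Sox11 was the only member below -1 in YTHDF1 RIP, and with all 6 libraries in the fit all 8 were above 0 in YTHDF2 RIP against YTHDF1 RIP.

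Directly compared, YTHDF2 RIP was above YTHDF1 RIP for all 8 tested members, with log2 changes from 0.31 in Sox8 to 0.96 in Sox11. This did not hold without YTHDF1 RIP replicate 2, where Sox8 had -0.06 and Sox10 -0.23 and the change of Sox12 was 0.0088 in place of 0.88. Without YTHDF2 RIP replicate 2 the change of Sox11 was 0.11. Each of these fits sets a single replicate number of one RIP against both numbers of the other. Differences between the replicates correlated at r = 0.68 between the RIPs over the tested genes. How far the replicate number made these shifts was not tested. The change was also positive for 69.9% of all tested genes. Adjusted p-values were 0.864 to 0.902. Both YTHDF2 libraries were above both YTHDF1 libraries for Sox1, Sox2, Sox4 and Sox9, 4 of 8, where 21.6% of all tested genes were. Sox11 alone had a ratio of means above 2 (2.14), as did 13% of all tested genes. The median over the members was 0.56, against 0.22 over all tested genes and 0.37 over the 1-exon genes outside the family. Across the 8 members Pearson's r of this change was 0.77 with log2 transcript length and -0.26 with GC content. Across 11041 tested genes with a GC value it was 0.43 and -0.10.

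The 2 replicates of a RIP differed for the members along with their GC content. On the log2(FPKM + 1) scale, YTHDF1 RIP replicate 1 exceeded replicate 2 by 1.73 for Sox12 and by 1.43 for Sox10, while for Sox11 the difference was -1.20. In the YTHDF2 RIP the differences of Sox10, Sox12 and Sox11 were 0.65, 0.22 and -1.69. In the input they were -0.39, 0.24 and 0.19. The GC-rich Sox10 was thus higher in replicate 1 of each RIP and the AT-rich Sox11 in replicate 2. Sox12 was clearly higher in replicate 1 only in the YTHDF1 RIP, as its difference in the YTHDF2 RIP was no larger than in the input. Sox1, also above 56% GC, had 0.29 in the YTHDF1 RIP and -0.20 in the YTHDF2 RIP. Sox8, at 54.2% GC, had 0.75 and 0.44. Across the 8 members, Pearson's r between GC content and the replicate difference was 0.84 in the YTHDF1 RIP, 0.85 in the YTHDF2 RIP and -0.16 in the input. Across 11041 tested genes with a GC value it was 0.47, 0.45 and -0.21. With log2 transcript length in place of GC content, r was -0.57, -0.67 and 0.24 across the members and -0.09, -0.25 and -0.04 across these genes. Genes of a library are not independent replicates, so no p is given.

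**Figure D4:**
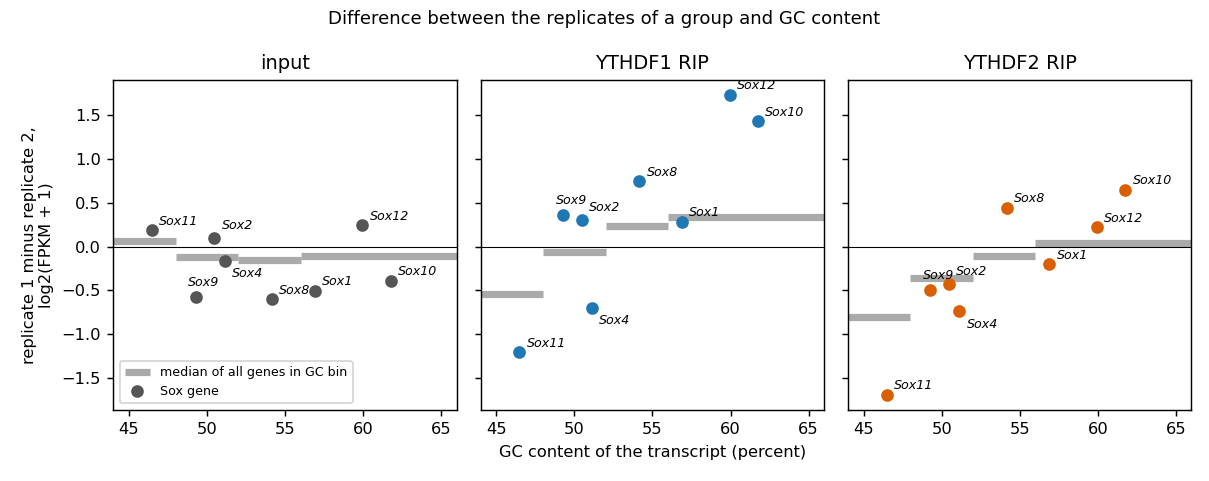
Replicate 1 minus replicate 2 on the log2(FPKM + 1) scale against the GC content of the transcript, for the 8 tested Sox genes (points) in each group. Grey bars are medians of all tested genes in 4 GC bins, drawn only within the range of the axis. In both RIP groups the difference went from below -1 for Sox11 to above 0 for Sox12 and Sox10, and in the input it stayed between -0.60 and 0.24.

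GC content also went along with the change against input. Across the 8 members r was 0.85 in YTHDF1 RIP and 0.83 in YTHDF2 RIP, and across all tested genes it was 0.48 and 0.36. For tested genes above 56% GC, the class of Sox1, Sox10 and Sox12, the median change was 0.65 in YTHDF1 RIP and 0.81 in YTHDF2 RIP. For those under 48% GC, the class of Sox11, it was -0.43 and -0.17. With the GC correction the changes in YTHDF2 RIP were 1.03 for Sox12, 1.03 for Sox4, 0.53 for Sox8, 0.41 for Sox1, 0.34 for Sox10 and 0.03 for Sox11. In YTHDF1 RIP they were between -0.26 and 0.28 for all tested members but Sox11, which had -0.88. Under this correction Sox12 and Sox4 had the largest changes of the members in YTHDF2 RIP.

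The patterns of the 3 highest members were set beside those of 3541 protein-coding genes of at least 5 FPKM outside the Sox family, by Pearson's r of log2(FPKM + 1) over the 6 libraries. These libraries form 3 groups of 2 and share depth and base composition, so r describes likeness only. Closest to Sox11 were Lsm14a (r = 0.998), Gnaq (r = 0.997) and Dcx (r = 0.993). Dcx, the microtubule protein doublecortin of migrating neurons, had 31.8 and 28.7 FPKM in the input, 4.68 and 14.1 FPKM in the YTHDF1 RIP, and 10.5 and 66.3 FPKM in the YTHDF2 RIP, with the highest and the lowest library the same as for Sox11. Closest to Sox4 were Tmem178b, Srgap3 and Msl1 (r = 0.999, 0.994 and 0.994). Closest to Sox12 were Mab21l1, Zfp768 and Maneal (r = 0.999, 0.997 and 0.996). Their GC content was 47.2%, 59.7% and 54.4%, against 59.9% in Sox12. Mab21l1 had 23.3 and 20.9 FPKM in the input, 80.1 and 22.5 FPKM in the YTHDF1 RIP, and 85.7 and 74.0 FPKM in the YTHDF2 RIP, in the order seen for Sox12. Such likeness was common, since 71, 166 and 115 of the 3541 genes had r above 0.95 with Sox11, Sox4 and Sox12.

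Of the other 10 Sox genes of the mouse, 3 were tested. Sox5 averaged 1.90 FPKM over the 6 libraries, Sox18 1.25 and Sox6 1.19, and their log2 changes were between -0.05 and 0.31 in YTHDF1 RIP and between 0.56 and 0.63 in YTHDF2 RIP. None of the 3 passed the threshold in limma, and none had an unadjusted p under 0.05. Sox5 and Sox6 are SoxD factors of progenitors and glia, and Sox18 is a SoxF factor of the endothelium. The remaining 7 were below the limit, and Sry and Sox14 were listed at 0 in every library.

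Proteins that work with Sox factors were taken as a list of 17 genes, of which 16 were tested. In YTHDF2 RIP against input 3 were higher, where 11.9% of all tested genes were, and 1 was lower, where 6.66% were. The POU factor Pou3f4, which like others of its class binds DNA together with Sox proteins, had 1.06 and 1.5 FPKM in the input and 3.95 and 5.22 FPKM in the YTHDF2 RIP (log2 change 1.29, SE 0.32, adjusted p = 0.0356). Gli2 and Gli3, transcription factors of the hedgehog pathway, rose by 2.23 (SE 0.50, adjusted p = 0.0282) and 1.44 (SE 0.39, adjusted p = 0.0423) on the log2 scale. Hdac2, a histone deacetylase, was lower, with 31.2 and 21.9 FPKM in the input and 3.60 and 5.21 FPKM in the YTHDF2 RIP (log2 change -2.34, SE 0.48, adjusted p = 0.0230). In YTHDF1 RIP 0 of 16 passed in limma, where 2.57% of all tested genes did, and 1 had an unadjusted p under 0.05, as did 26.7% of all. The list's median was -0.25 in YTHDF1 RIP and 0.58 in YTHDF2 RIP.

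Genes known to be regulated by Sox factors were a list of 28, of which 27 were tested. In YTHDF2 RIP 4 were higher and 0 were lower, where 11.9% and 6.66% of all tested genes were, and 9 had an unadjusted p under 0.05, as 37.5% of all tested genes did. Olig1, a transcription factor of the oligodendrocyte lineage, had 2.15 and 2.28 FPKM in the input and 14.1 and 11.3 FPKM in the YTHDF2 RIP, a log2 change of 2.09 (SE 0.40, adjusted p = 0.0204). Cspg4, which encodes the NG2 proteoglycan of oligodendrocyte precursors, changed by 1.21 (adjusted p = 0.0326). Gli1 changed by 1.44 (adjusted p = 0.0298) and the receptor Notch1 by 1.35 (adjusted p = 0.0371). In YTHDF1 RIP 0 of 27 passed in limma, where 2.57% of all tested genes did, and 11 had an unadjusted p under 0.05, as did 26.7% of all. The list's median was 0.24 in YTHDF1 RIP and 0.56 in YTHDF2 RIP. The calls of both lists needed the 2 input libraries: of all tested genes, 0 passed in YTHDF2 RIP without input replicate 2 and 9 without input replicate 1, against 2049 with both.

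The SoxE members and Sox2 mark glia, which a granule cell preparation may also hold. In the input, 11 astrocyte and Bergmann glia markers summed to 297 to 320 FPKM and 11 oligodendrocyte lineage markers to 88.1 to 114 FPKM, and 10 granule cell markers summed to 336 to 447 FPKM. No marker of these lists was at 0 in all libraries. The oligodendrocyte lineage markers summed to 86.5 to 130 FPKM in the YTHDF1 RIP and 146 to 163 FPKM in the YTHDF2 RIP, where 3 of the 11 were higher (Olig1, Cspg4 and Gpr17) and 1, Enpp6, was lower, where 11.9% and 6.66% of all tested genes were. The astrocyte and Bergmann glia markers summed to 149 to 203 FPKM in the YTHDF1 RIP and 214 to 278 FPKM in the YTHDF2 RIP, and 0 of 11 passed in limma in either, with 4 at an unadjusted p under 0.05 in each, where 26.7% and 37.5% of all tested genes were. The granule cell markers summed to 336 to 528 FPKM in the YTHDF1 RIP and 670 to 814 FPKM in the YTHDF2 RIP. The part of these cells in the values of Sox8, Sox9 and Sox10 was not tested. In bulk samples, fewer cells of a type and less RNA per cell cannot be told apart.

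Genes at or above 1 FPKM numbered 9503 to 12627 per library. The replicates correlated at r = 0.95 in the input, 0.80 in the YTHDF1 RIP and 0.82 in the YTHDF2 RIP over the tested genes. Mitochondrially encoded genes took 18.0% to 18.4% of the summed FPKM in the input and 0.0892% to 3.68% in the RIP libraries. Nuclear protein-coding genes took 7.71% to 8.26% in the input and 10.1% to 18.9% in the RIP libraries, the most in YTHDF2 RIP replicate 2. The files give no read counts. From the smallest steps of low values, 1 fragment on a transcript of 1000 nt was put at 0.0207 to 0.0543 FPKM. This is a rough estimate, as only 35.2% to 39.5% of low values lay within 0.1 of a whole multiple. By it, of the members only Sox3 lay near that limit.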

How the data were processed

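The authors incubated GC lysates with antibody-coated beads (anti-YTHDF1 or anti-YTHDF2), and took unselected lysate as input. The deposited table holds 1 FPKM value per gene and library as calculated by the authors. The study's methods name STAR 2.5 and Cufflinks 2.2.1 with GRCm38. The submitters' processing notes name Bowtie 0.12.2 with mm8 and mm9, and which made the table is not settled. The labels name 2 TruSeq kits, of which 1 marks strand. Replicates were not pooled, and all 6 columns were used.

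Gene symbols, exons, sequences and GC contents came from GENCODE release M21 on GRCm38, which had entries for 52403 of 52550 IDs. The values did not fall on whole multiples of 1 fragment closely enough (35.2% to 39.5% of low values within 0.1 of one), so no count test was run. limma 3.58.1 (R 4.3.3) was fitted to log2(FPKM + 1) of all 6 libraries with a mean per group and an intensity trend, leaving 3 residual degrees of freedom. Tests were 2-sided and covered the 11057 genes that averaged 1 FPKM or more. Tables were made with Python 3.11.15 and plots with matplotlib 3.10.9.

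Named genes are the 10 members, other Sox genes averaging 1 FPKM or more, overlapping genes, at most 6 genes per related list that passed in a RIP against input and had the largest changes, and the 3 genes with the most similar pattern for each of the 3 highest members. The markers Gpr17 and Enpp6 were named after their values were seen. The members and lists were chosen with earlier results of these data known. Alternatives were other pseudocounts, filters, scalings, corrections and sets of libraries.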

Additional observations from a re-analysis of the deposited data

How the results depend on the processing

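The fit was repeated under 19 alternatives, which gave 150 log2 changes of members per comparison. Of these, 137, 137 and 148 kept their direction and side of the threshold in YTHDF1 RIP against input, in YTHDF2 RIP against input and between the 2 RIPs. Many directions could not change. Another filter, no intensity trend, a block alone, only the 4 libraries compared or leaving out a library of the third group keep the log2 change of the main fit. Under these only the p-value can move, so the counts do not measure how stable the directions were. For the others, and for the counts below, the cause was not tested except where the alternative itself shows it. The number of members past the threshold was 0 under all alternatives in YTHDF1 RIP against input and between the RIPs. In YTHDF2 RIP against input it was 4 with scaling to the summed FPKM (TPM-like), where Sox1, Sox8, Sox10 and Sox12 had changes of 1.52, 1.49, 1.79 and 2.40. It was 1, Sox12, with only the 4 libraries compared, and 0 to 1 when a library was left out. The TPM-like scaling also moved the median of all tested genes to 0.49 and 0.79 in YTHDF1 and YTHDF2 RIP. The share of higher genes among those past the threshold in YTHDF2 RIP was 64.1%, and 39.6%, 52.8% and 91.0% under median-of-ratios, nuclear protein-coding and TPM-like scaling. In YTHDF1 RIP it was 24.3%, and 37.4% under nuclear protein-coding scaling, 8.63% with a pseudocount of 5 and 45.4% with a filter of 5 FPKM, and with a pseudocount of 0.1 it was 117 of 266 genes.

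The replicate numbers were not taken to pair the libraries, since no label ties them to a shared animal and deviations of same-numbered libraries correlated at -0.14 between input and each RIP and at 0.68 between the RIPs. With the replicate number as a block, 1 member (Sox12, adjusted p = 0.0231) passed in YTHDF2 RIP against input, and 1432, 3349 and 2 of all tested genes passed in the 3 comparisons. With a crossed block, added after seeing the data, 2 members passed in YTHDF2 RIP against input, and 2239, 4007 and 2 of all tested genes did. With the block and a GC and length correction, 1067 and 2 of all tested genes passed in YTHDF1 RIP against input and YTHDF2 against YTHDF1 RIP, and Sox12 had 0.71 (adjusted p = 0.255) and Sox4 0.66 (adjusted p = 0.289) in YTHDF2 RIP against input.

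Over all tested genes, 284 passed in YTHDF1 RIP against input. This was 0 with no filter on low values and under TPM-like scaling, 634 under median-of-ratios scaling, 604 under nuclear protein-coding scaling, 755 with only the 4 libraries compared, and 0 to 802 when a library was left out, with at most 8 without a library of the input or the YTHDF1 RIP and 747 and 802 without one of the YTHDF2 RIP. In YTHDF2 RIP against input 2049 passed, with 0 under no filter, 1243 with a filter of 5 FPKM and 0 to 2141 when a library was left out, of which 0 and 9 were without input replicates 2 and 1 and 860 without YTHDF2 RIP replicate 2. In YTHDF2 against YTHDF1 RIP 1 passed, and 0 did with a pseudocount of 0.1, no filter, the 5 FPKM filter, median-of-ratios or TPM-like scaling or only 4 libraries, with 0 to 1 when a library was left out. By limma, 3922, 5558 and 855 genes had an unadjusted p under 0.05 with no filter.

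In YTHDF1 RIP against input, the change of Sox2 turned from -0.04 to 0.000785 under nuclear protein-coding scaling and to 0.44 under TPM-like scaling, and it was -0.20 to 0.11 when a library was left out. That of Sox9 turned from -0.28 to 0.21 under TPM-like scaling and was -0.57 to 0.0076 when a library was left out. The change of Sox1 became -0.18 and that of Sox10 -0.12 with the GC correction, and -0.41 and -0.17 with the block and GC and length correction, where Sox12 had -0.059. When a library was left out, Sox10 had -0.039 to 1.39 and Sox12 -0.0054 to 1.73, the lowest values being those without YTHDF1 RIP replicate 1. In YTHDF2 RIP against input, Sox11 turned from -0.16 to 0.50 under TPM-like scaling, 0.035 with the GC correction and -1.0 to 0.69 when a library was left out. In YTHDF2 against YTHDF1 RIP, Sox8 had -0.061 to 0.69 and Sox10 -0.23 to 1.20 when a library was left out, both lowest without YTHDF1 RIP replicate 2.

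The number of the 10 members with a ratio above 2 was 4 in YTHDF1 RIP, 1 within replicate number 2, and 1 to 5 when a library was left out. In YTHDF2 RIP it was 7, and 4 under nuclear protein-coding scaling, under median-of-ratios scaling and within replicate number 2, with 5 to 7 when a library was left out. Within replicate number 1, the members above 2 were Sox1, Sox3, Sox8, Sox10, Sox12 and Sox21 in both RIPs, so the replicate numbers differed in this measure. With 2 libraries per group and no counts, the precision of single genes is limited by the spread between RIP replicates.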
